A study of Homo sapiens with 6 samples.

Results

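The MCM family holds 9 human genes, MCM2 to MCM10, which were taken by symbol from a table of 61280 gene rows. All 9 had a single row, and all 9 were among the 14621 genes that reached 1 TPM in at least 3 of the 6 libraries and were tested. TPM is a gene's share of its library's transcripts, scaled to a fixed total after division by transcript length, so levels of different genes can be compared on it. The RNA came from MDA-MB-231, a human breast cancer line that grows without oestrogen receptor signalling and carries mutant p53. The irradiated group received 20 Gy of X-rays and was cultured for another 24 h (3 libraries), and the control group was not treated (3 libraries). Both groups came from the same line, kept in DMEM with fetal bovine serum. No culture time is given for the controls, so culture time and irradiation cannot be told apart. The labels number the replicates without saying that they were separate cultures, so the p-values describe the spread of these particular libraries, which may be technical.

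MCM2 to MCM7 form the ring-shaped motor of the replicative helicase. The ring is loaded onto replication origins in G1 phase by the origin recognition complex with CDC6 and CDT1, and it is switched on in S phase by the CDC7-DBF4 kinase, CDC45 and the GINS complex. Their genes are classical targets of the E2F transcription factors, which raise transcription at the passage from G1 into S phase. MCM8 and MCM9 carry the same kind of ATPase domain but work together in homologous recombination, and MCM10 is an unrelated DNA-binding protein that helps the loaded helicase to start.

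The promoter windows below are shown because E2F sites are the textbook element shared by these genes. RefSeq windows (GRCh38.p14, the same assembly as hg38) from 250 bases before to 50 bases after the gene start were read for 7 of the 9 members, all but MCM4 and MCM5. They were searched on both strands for TTTCGCGC, TTTGGCGC, TTTCCCGC and TTTGCCGC. Of 35116 windows of the same length in the genome, 3.31% held at least 1 of these strings. The windows of 5 of the 7 members did, those of MCM2, MCM3, MCM6, MCM7 and MCM8. Each line gives 30 bases on the gene's strand, 5′ to 3′, with the matched bases in capitals; matches on opposite strands overlap in MCM2 and MCM6.
MCM2 (chr3:127598404-127598433, plus strand): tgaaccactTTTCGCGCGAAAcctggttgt
MCM3, upstream place (chr6:52284898-52284927, minus strand): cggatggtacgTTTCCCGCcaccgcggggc
MCM3, place at the start (chr6:52284728-52284757, minus strand): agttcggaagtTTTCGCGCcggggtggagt
MCM6, upstream place (chr2:135876575-135876604, minus strand): ggctttgcaTTTGGCGCGAAAtccctttcc
MCM6, place nearer the start (chr2:135876513-135876542, minus strand): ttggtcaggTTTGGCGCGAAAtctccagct
MCM7, upstream place (chr7:100101566-100101595, minus strand): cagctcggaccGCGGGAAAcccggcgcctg
MCM7, place at the start (chr7:100101388-100101417, minus strand): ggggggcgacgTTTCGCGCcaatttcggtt
MCM8 (chr20:5950667-5950696, plus strand): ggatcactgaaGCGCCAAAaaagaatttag

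Counted from the gene start, with the first transcribed base as 1, the match of MCM2 ran from 3 to 14. The 2 places of MCM6 ran from -152 to -141 and from -90 to -79, and the same 12 bases stood in both. In MCM3 the place at the start ran from -4 to 4, in MCM7 from -9 to -2 and in MCM8 from 27 to 34. MCM7 has 3 RefSeq starts, and the matches lay in the window of the most upstream start alone. A CCAAT box, searched as CCAAT on both strands, stood in the windows of 6 of the 7 members, MCM2 being the exception, against 34.6% of all windows. The CHR element, searched as TTTGAA and TTCGAA on both strands, was found in MCM6 alone of the 7, against 16.4% of all windows. A match is a string of letters in this window, and occupancy by a factor was not measured.

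Transcripts of all 6 ring subunits fell after irradiation, whereas MCM8, MCM9 and MCM10 did not pass the test. A gene was called when limma's p on log2(TPM + 1), with Benjamini-Hochberg adjustment across the whole tested table, was under 0.05. Of the 9 genes, 6 fell and none rose, where 10.6% of all tested genes were called, 4.07% lower and 6.53% higher. The irradiated values of 7 genes, the ring subunits and MCM10, lay wholly below the control values, as did those of 14.5% of all tested genes, while 34.9% were free of overlap in either direction. The median log2 change was -0.53 over MCM2 to MCM7 and -0.44 over the 9 genes, beside 0.03 over all tested genes. In bulk RNA, fewer cells that express a transcript and less of it per cell cannot be told apart. Levels are given as mean ± SD over the 3 libraries of a group, changes are on the scale of log2(TPM + 1) with their SE, and adjusted p-values come from limma.

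**Figure D1:**
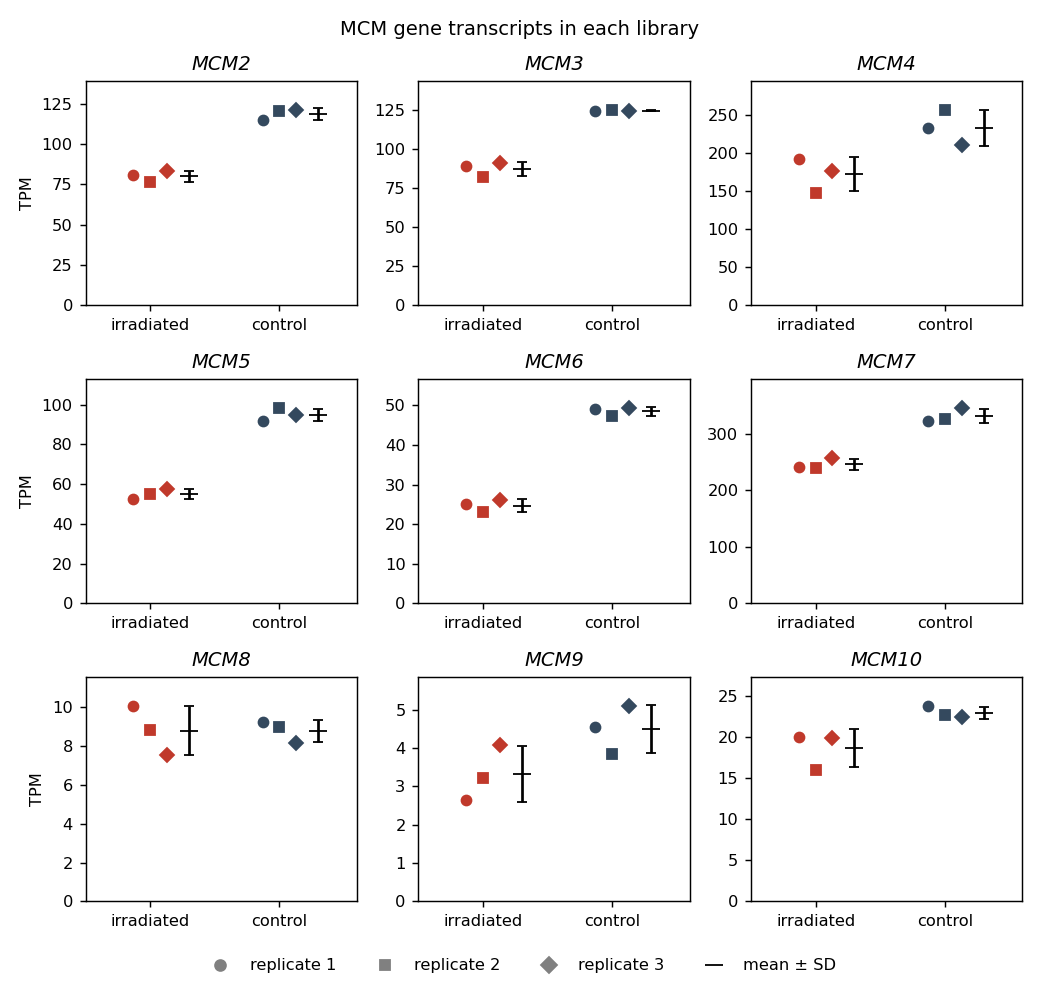
TPM of the 9 MCM genes in each library, irradiated on the left and control on the right of each panel, with replicates as separate symbols and mean ± SD beside them; each vertical axis starts at 0. The 2 groups are apart for MCM2 to MCM7 and MCM10, and they overlap for MCM8 and MCM9.

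MCM6, with MCM4 and MCM7 a subunit of the catalytic core of the ring, had the largest fall of the family (ENSG00000076003; chromosome 2, 135839630 to 135876430, hg38, minus strand). Its level was 25.06, 22.94 and 26.03 TPM in irradiated replicates 1 to 3, against 48.99, 47.18 and 49.23 TPM in control replicates 1 to 3. The lowest control value was well above the highest irradiated one. The means were 24.7 ± 1.58 TPM in irradiated and 48.5 ± 1.12 TPM in control cells, a ratio of 0.509, with a log2 change of -0.95 ± 0.06 (adjusted p = 0.00177). Among the 14621 tested genes it ranked 70 from the lowest log2 change. In its promoter window, as in those of MCM3 and MCM7, the searched E2F strings stood in 2 separate places. A link between such places and the size of a fall was not tested.

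MCM5, which forms with MCM2 the gate through which DNA enters the ring (ENSG00000100297; chromosome 22, 35400063 to 35425430, plus strand), was second. Irradiated replicates 1 to 3 had 52.56, 55.15 and 57.57 TPM, against 92.00, 98.18 and 94.58 TPM in control replicates 1 to 3. All 3 irradiated values thus lay far below the control range. The mean was 55.1 ± 2.51 TPM in irradiated and 94.9 ± 3.10 TPM in control cells (ratio 0.580, log2 change -0.77 ± 0.05, adjusted p = 0.00177, rank 107 from the lowest).

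MCM2, the other side of the gate and a binder of parental histones at the fork (ENSG00000073111; chromosome 3, 127598220 to 127622440, plus strand), had 80.70, 76.32 and 83.13 TPM in irradiated replicates 1 to 3, against 114.62, 120.56 and 120.86 TPM in control replicates 1 to 3. The groups were separated by more than 30 TPM. The means were 80.05 ± 3.45 TPM in irradiated and 119 ± 3.52 TPM in control cells (ratio 0.675, log2 change -0.56 ± 0.05, adjusted p = 0.00309). MCM3, which in yeast is the subunit that first contacts the origin-bound loader (ENSG00000112118; chromosome 6, 52264009 to 52284881, minus strand), had 89.13, 82.26 and 90.99 TPM in irradiated replicates 1 to 3, against 124.13, 124.84 and 124.64 TPM in control replicates 1 to 3. Its control values were the most even of the family, with a coefficient of variation of 0.294%, against 5.26% in irradiated cells. The log2 change of MCM3 was -0.51 ± 0.05 (ratio of means 0.702, adjusted p = 0.00374).

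MCM7, the most abundant member (ENSG00000166508; chromosome 7, 100092730 to 100101940, minus strand), had 241.03, 238.78 and 257.53 TPM in irradiated replicates 1 to 3, against 322.57, 325.38 and 345.15 TPM in control replicates 1 to 3. The mean was 246 ± 10.2 TPM in irradiated and 331 ± 12.3 TPM in control cells, so the largest loss in absolute TPM stood beside the smallest fall in log2 of the 6 subunits (-0.43 ± 0.05, ratio 0.742, adjusted p = 0.00505). Even so, only 2.79% of all tested genes had a log2 change as low as that of MCM7 or lower. The fall of MCM4 (-0.44 ± 0.11) was close to that of MCM7, and their order changed with the setting. After GC and length correction the log2 change was -0.42 for MCM4 and -0.49 for MCM7. The 3 microRNA genes inside MCM7, MIR25, MIR93 and MIR106B, were listed at 0 in all 6 libraries. Capture of such short RNA by these libraries was not assessed, so the 0 does not show absence.

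MCM4, a catalytic subunit and in yeast a main substrate of the CDC7 kinase (ENSG00000104738; chromosome 8, 47960185 to 47978160, plus strand), varied most among the ring subunits. It had 192.85, 148.32 and 176.67 TPM in irradiated replicates 1 to 3, against 233.01, 256.66 and 210.58 TPM in control replicates 1 to 3. The groups did not overlap, but the coefficient of variation was 13.1% in irradiated and 9.87% in control cells, where the other 5 subunits had at most 6.40%. The log2 change was -0.44 ± 0.11 (ratio 0.740), and the adjusted p of 0.0441 was close to the threshold. When a library was dropped, the adjusted p of MCM4 missed the threshold for control replicate 1 (0.120), control replicate 2 (0.138), control replicate 3 (0.0567), irradiated replicate 2 (0.0698) and irradiated replicate 3 (0.0938), and passed it for irradiated replicate 1 (0.0466). The other 5 subunits passed in each of the 18 alternatives.

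**Figure D2:**
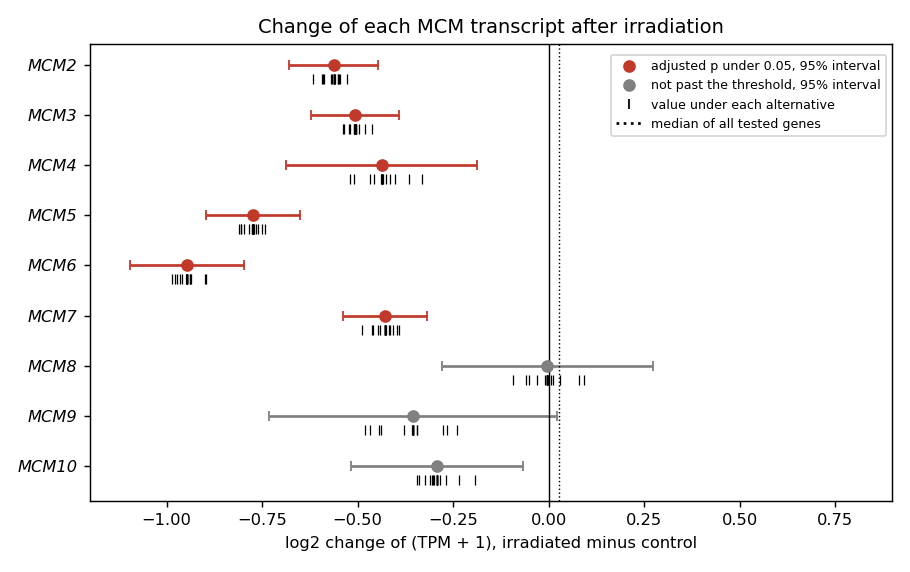
Log2 change of (TPM + 1), irradiated minus control, of each MCM gene with its 95% interval from limma; red points have an adjusted p under 0.05, ticks under each point are the values under the alternatives, and the dotted line is the median of all tested genes (0.03). MCM6 and MCM5 lie furthest to the left at -0.95 and -0.77, and the interval of MCM8 spans 0.

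MCM10, the activation factor (ENSG00000065328; chromosome 10, 13161554 to 13211104, plus strand), had 20.01, 15.97 and 19.86 TPM in irradiated replicates 1 to 3, against 23.71, 22.68 and 22.37 TPM in control replicates 1 to 3. All 3 irradiated values were below the control values, and replicate 2 was the lowest. The log2 change was -0.29 ± 0.10, with a 95% interval from -0.52 to -0.07, and it did not pass (limma, adjusted p = 0.0953). Without irradiated replicate 2 the log2 change was -0.19. It passed after median-ratio scaling (adjusted p = 0.0397) and after quantile normalization (0.0371).

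MCM9 was the least abundant member (ENSG00000111877; chromosome 6, 118813440 to 118935160, minus strand). It had 2.64, 3.21 and 4.09 TPM in irradiated replicates 1 to 3, against 4.54, 3.84 and 5.09 TPM in control replicates 1 to 3, so the highest irradiated value exceeded the lowest control value. Its log2 change of -0.36 ± 0.16 (95% interval -0.73 to 0.02) did not pass (adjusted p = 0.199), and the pseudocount of 1 understates the change of a gene at this level. The ratio of its mean TPM, 0.738, was near that of MCM4 and MCM7, at a coefficient of variation of 22.05% in irradiated and 13.95% in control cells.

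MCM8, the partner of MCM9 (ENSG00000125885; chromosome 20, 5950652 to 5998977, plus strand), had 10.06, 8.83 and 7.53 TPM in irradiated replicates 1 to 3, against 9.24, 8.97 and 8.15 TPM in control replicates 1 to 3. The irradiated values spanned the whole control range. The means were 8.81 ± 1.27 TPM in irradiated and 8.79 ± 0.568 TPM in control cells, and the log2 change was -0.00 ± 0.12 (adjusted p = 0.989). The 95% interval reached from -0.28 to 0.27, so it does not exclude a small change in either direction. The estimated change of each ring subunit lay outside it, but those estimates have errors of their own. The interval of MCM4 (-0.69 to -0.19) overlapped that of MCM8.

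Within the family the order of levels was the same in all 6 libraries: MCM7, MCM4, MCM3, MCM2, MCM5, MCM6, MCM10, MCM8 and MCM9. Neighbours in this order did not overlap within a group, except MCM3 and MCM2 in irradiated cells, whose values overlapped (means 87.5 and 80.05 TPM). MCM7 was 9.97 ± 0.401 times as abundant as MCM6 in irradiated cells and 6.83 ± 0.221 times in control cells, although the proteins sit in the ring in equal numbers. The summed TPM of MCM2 to MCM7 was 681.33, 623.77 and 691.92 in irradiated replicates 1 to 3, against 935.32, 972.80 and 945.04 in control replicates 1 to 3. That is 0.0666% ± 0.00367 of the TPM of a library in irradiated and 0.0951% ± 0.00194 in control cells. Irradiated replicate 2 was the lowest irradiated library for 6 of the 9 genes.

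The proportions of the subunits were compared by shares, in a test that cannot bring any share past the threshold at 3 against 3 libraries. A share of the summed TPM of MCM2 to MCM7 does not depend on how libraries were scaled. MCM6 held 3.71% ± 0.0486 of the sum in irradiated and 5.10% ± 0.216 in control cells, and its irradiated values of 3.68%, 3.68% and 3.76% lay below all control values (5.24%, 4.85% and 5.21%). MCM5 held 8.29% ± 0.564 in irradiated and 9.98% ± 0.131 in control cells, also with no overlap. MCM2 went the same way by a smaller step, with 12.0% ± 0.196 in irradiated and 12.5% ± 0.277 in control cells. These 3 shares had an exact two-sided permutation p of 0.1, the smallest that 3 against 3 libraries allow (0.2 after adjustment over the 6 genes). The share of MCM3 was 13.1% in both groups. MCM7 held 36.96% ± 1.47 in irradiated and 34.8% ± 1.56 in control cells, and MCM4 held 25.9% ± 2.28 in irradiated and 24.5% ± 2.08 in control cells; both overlapped between groups (exact p = 0.2 and 0.5).

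**Figure D3:**
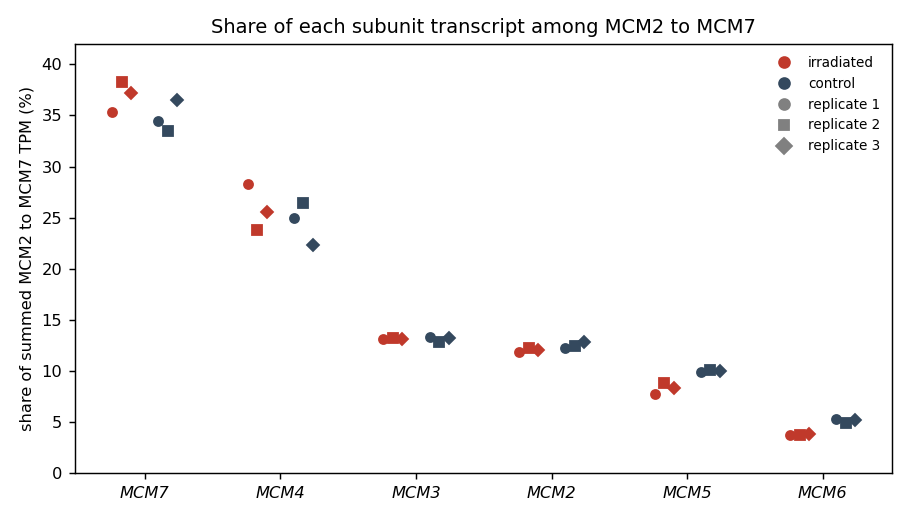
Share of each gene in the summed TPM of MCM2 to MCM7, in percent, for each library; irradiated (red) stands left of control (dark) and symbols mark the replicates. MCM6, MCM5 and, by a smaller step, MCM2 took smaller shares in irradiated cells, with no overlap, while the shares of MCM7, MCM4 and MCM3 overlapped.

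All 36 pairs of members were compared by the log2 ratio of their TPM + 1 in each library. The ratios of 21 pairs did not overlap between groups, against 33.1% of all pairs of tested genes. Pairs that share a member depend on each other, so the 21 are not separate results. By kind, these were 9 of the 15 pairs within MCM2 to MCM7, 12 of the 18 pairs of a ring subunit with MCM8, MCM9 or MCM10, and 0 of the 3 pairs among MCM8, MCM9 and MCM10. Exact two-sided permutation tests gave at best p = 0.1, and 0.171 after adjustment over the 36 pairs, so this test cannot bring any pair past the threshold at 3 against 3 libraries. The log2 ratio of MCM6 to MCM7 was -3.27 ± 0.0549 in irradiated and -2.75 ± 0.0467 in control cells, a difference of -0.52. MCM6 and MCM5 differed least from each other among the pairs with MCM6, by 0.17 in the log2 ratio of MCM5 to MCM6, and those values overlapped. The log2 ratio of MCM4 to MCM7 was -0.32, -0.68 and -0.54 in irradiated replicates 1 to 3, against -0.47, -0.34 and -0.71 in control replicates 1 to 3, and these values overlapped (difference of means -0.01). All 6 subunits lay lower against MCM8 in irradiated than in control cells, with differences from -0.94 for MCM6 to -0.42 for MCM7 and no overlap in any of the 6. Against MCM9 only the ratios of MCM5 (difference -0.42) and MCM6 (-0.59) did not overlap, and against MCM10 those of MCM2 (-0.27), MCM3 (-0.21), MCM5 (-0.48) and MCM6 (-0.65).

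Several members share DNA with a neighbour, and the sources used here give no strand setting, so reads in shared exons cannot be assigned with certainty. PRKDC, the DNA-dependent protein kinase gene, starts 2 bases from MCM4 on the opposite strand; it had 106 ± 8.35 TPM in irradiated and 114 ± 4.07 TPM in control cells and did not pass the test (log2 change -0.12, adjusted p = 0.280). TPRA1 overlaps the first bases of MCM2 on the other strand, with 26.65 ± 0.111 TPM in irradiated and 24.99 ± 1.38 TPM in control cells (log2 change 0.09, adjusted p = 0.394). AP4M1, an adaptor complex gene that overlaps the start of MCM7, had 13.3 ± 0.601 TPM in irradiated and 11.2 ± 1.40 TPM in control cells (log2 change 0.24, adjusted p = 0.186). TRMT6, a tRNA methyltransferase subunit gene that starts 94 bases from MCM8, had 19.0 ± 1.46 TPM in irradiated and 22.1 ± 0.692 TPM in control cells (log2 change -0.21, adjusted p = 0.127). ASF1A, a histone chaperone gene within MCM9 on the other strand, had 32.5 ± 2.52 TPM in irradiated and 32.06 ± 1.73 TPM in control cells (log2 change 0.02, adjusted p = 0.910). None of these 5 neighbours passed the test, where 10.6% of all tested genes were called. The irradiated values of TPRA1 and AP4M1 lay wholly above the control values and those of TRMT6 wholly below. Those of PRKDC and ASF1A overlapped, and 34.9% of all tested genes were free of overlap in either direction. The antisense gene MCM8-AS1 was listed at 0 in all 6 libraries.

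Genes that load, activate, accompany and unload the ring were counted against the 10.6% of all tested genes that were called, 4.07% lower and 6.53% higher. In origin licensing, which places MCM2 to MCM7 on DNA, none of 10 genes passed in either direction, with a median log2 change of 0.03. Irradiated values lay wholly below control values in 1 of the 10 and wholly above in 2. Over all tested genes 34.9% were free of overlap in either direction, 14.5% with the irradiated values below. CDC6, the ATPase that recruits the ring, had 106 ± 5.36 TPM in irradiated and 103 ± 2.48 TPM in control cells (log2 change 0.03, 95% interval -0.09 to 0.15, adjusted p = 0.724). GMNN, the inhibitor of CDT1, had 88.6 ± 1.13 TPM in irradiated and 95.3 ± 0.595 TPM in control cells (log2 change -0.10 ± 0.04, adjusted p = 0.135). In helicase activation 2 of 13 genes fell and none rose, with a median of 0.01. Irradiated values lay wholly below control values in 4 of the 13 and wholly above in 2. GINS2, a subunit of the GINS complex, had 12.46, 12.49 and 12.95 TPM in irradiated replicates 1 to 3, against 18.40, 18.41 and 17.81 TPM in control replicates 1 to 3 (log2 change -0.49 ± 0.07, adjusted p = 0.00871). The other GINS genes, GINS1 (-0.05), GINS3 (0.01) and GINS4 (0.20), did not pass. CDC45 lay wholly below its control values but did not pass (log2 change -0.20 ± 0.05, adjusted p = 0.0537). DBF4, the activating subunit of the CDC7 kinase, fell to 24.7 ± 1.10 TPM in irradiated cells, against 30.2 ± 2.07 TPM in control cells (log2 change -0.28 ± 0.07, adjusted p = 0.0489). It missed the threshold in 13 of the 18 alternatives (highest adjusted p 0.152). Among these were quantile normalization, GC and length correction, and the loss of any of the 6 libraries.

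Of 12 MCM chaperones and fork partners 2 fell and none rose, beside 4.07% lower and 6.53% higher over all tested genes, with a median of -0.07. SSRP1, a subunit of the histone chaperone FACT, had 191.13, 185.80 and 196.34 TPM in irradiated replicates 1 to 3, against 290.23, 280.40 and 273.77 TPM in control replicates 1 to 3 (log2 change -0.56 ± 0.04, adjusted p = 0.00201), and it passed in all 18 alternatives. SUPT16H, the other FACT subunit, had a log2 change of -0.18 ± 0.05 and did not pass (adjusted p = 0.0649). MCMBP, which binds free MCM subunits and supports their assembly, fell to 36.2 ± 1.41 TPM in irradiated cells, against 44.9 ± 1.00 TPM in control cells (log2 change -0.30 ± 0.05, adjusted p = 0.0188), and missed the threshold when any control library or irradiated replicate 3 was dropped (highest adjusted p over the 18 alternatives 0.0774). Of 8 unloading genes, TRAIP, a ubiquitin ligase that acts on the helicase, rose to 30.6 ± 2.24 TPM in irradiated cells, against 24.2 ± 1.33 TPM in control cells (log2 change 0.32 ± 0.08, adjusted p = 0.0392), and none fell, with a median of -0.01. TRAIP missed the threshold in 11 of the 18 alternatives (highest adjusted p 0.133). Among these were median-ratio scaling, quantile normalization, and GC and length correction. It also missed when any control library, irradiated replicate 2 or irradiated replicate 3 was dropped. Of 5 partners of MCM8 and MCM9, 4 were tested and none passed. The values of all 4 overlapped between groups, where 34.9% of all tested genes were free of overlap in either direction. MCMDC2, the remaining partner, was below the filter.

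**Figure D4:**
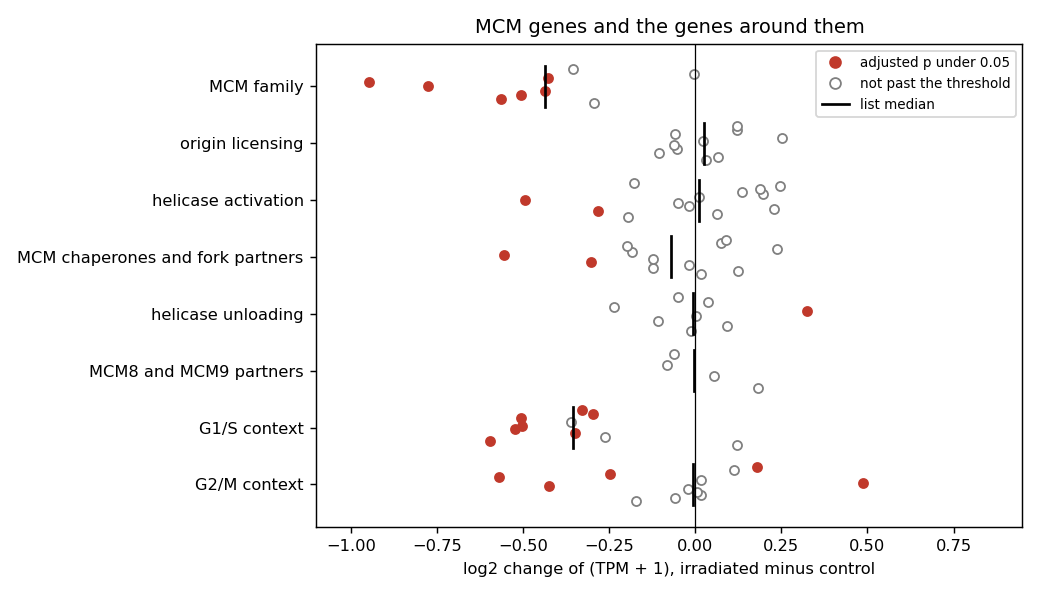
Log2 change of (TPM + 1), irradiated minus control, of each tested gene of the MCM family and of 7 lists around it; filled points have an adjusted p under 0.05, open points do not, and bars are list medians. The medians of the MCM family (-0.44) and the G1/S genes (-0.35) lie well left of 0, and those of the other lists lie between -0.07 and 0.03.

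Genes of the G1/S passage mostly fell beside the ring genes, while those of G2 phase and mitosis went in both directions. The part of either in the fall of the ring genes was not tested. Of 10 genes of the G1/S passage 7 fell and none rose, where 4.07% of all tested genes were called lower and 6.53% higher, with a median log2 change of -0.35; leaving out 1 library gave 3 to 7 falls. PCNA, the sliding clamp of the replication fork, had 164.75, 159.11 and 161.50 TPM in irradiated replicates 1 to 3, against 229.66, 219.89 and 240.28 TPM in control replicates 1 to 3 (log2 change -0.50 ± 0.04, adjusted p = 0.00309). SLBP, the histone mRNA binding protein, fell (-0.51 ± 0.05, adjusted p = 0.00351), as did the transcription factor E2F2 (-0.52 ± 0.10, adjusted p = 0.0249) and the cyclin gene CCNE2 (-0.60 ± 0.11, adjusted p = 0.0207). PCNA and SLBP passed with each library left out. E2F2 missed the threshold when any control library, irradiated replicate 1 or irradiated replicate 3 was dropped, and CCNE2 when any control library or irradiated replicate 1 was (highest adjusted p over the 18 alternatives 0.0925 and 0.0862). Of 12 genes of G2 phase and mitosis 2 rose and 3 fell, against the same shares of all tested genes (6.53% higher, 4.07% lower), with a median of -0.01 and 1 to 3 in each direction when 1 library was left out. CDK1, the kinase of mitotic entry, rose (0.49 ± 0.05, adjusted p = 0.00419), whereas CDC20 (-0.43 ± 0.04, adjusted p = 0.00328), MKI67 (-0.57 ± 0.11, adjusted p = 0.0246) and PLK1 (-0.25 ± 0.04, adjusted p = 0.0171) fell. MKI67 missed the threshold when control replicate 1, control replicate 2 or irradiated replicate 1 was dropped, and PLK1 when any control library or irradiated replicate 1 was (highest adjusted p over the 18 alternatives 0.0947 and 0.0664). UBE2C, the other gene that rose (0.18 ± 0.03, adjusted p = 0.0189), missed it in 9 of the 18 alternatives, median-ratio scaling among them. CDK1 kept its call in all 18.

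The genes with the profile nearest to MCM2 to MCM7 were found by the root mean square distance, over the 6 libraries, between a gene's centred log2(TPM + 1) values and the mean centred profile of the 6 subunits. Among 10103 genes outside the family with a symbol and a mean of at least 5 TPM, the nearest were SLC7A5, an amino acid transporter (distance 0.024), PHLDA1, a pleckstrin homology-like domain gene (0.028), SRRT, an RNA-processing factor (0.031), DUT, the dUTPase that keeps uracil out of DNA (0.035), and SSRP1 (0.047). SLC7A5 had 46.3 ± 1.19 TPM in irradiated and 71.7 TPM in control cells, and DUT had 101 ± 3.12 TPM in irradiated and 152 TPM in control cells. The distances of the members themselves were 0.031 for MCM2, 0.053 for MCM3, 0.098 for MCM5, 0.10 for MCM7, 0.14 for MCM4, 0.17 for MCM6, 0.17 for MCM10, 0.21 for MCM9 and 0.33 for MCM8. MCM2 thus followed the subunit average most closely, and SLC7A5 and PHLDA1 lay nearer to it than MCM2 did. Each of MCM2 to MCM7 is itself part of that average, whereas MCM8 to MCM10 and the genes outside the family are not. All these distances share the same 6 libraries in 2 groups and are given as a description.

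Between 14592 and 14889 genes reached 1 TPM in irradiated libraries, against 14248 to 14417 in control libraries. On the second principal component of the tested genes, with 21.8% of the variance, irradiated replicate 1 lay at -23.9 and irradiated replicate 2 at 25.4, while irradiated replicate 3 lay at -6.6 and the controls between -0.4 and 4.3. The line's mesenchymal genes VIM, CD44, AXL and CAV1 were all detected, with sums of 2058 to 2150 TPM in irradiated and 2542 to 2604 TPM in control libraries. Oestrogen receptor ESR1 was at most 0.39 TPM, and PGR was listed at 0 throughout. Of 5 luminal or epithelial markers 3 were under 1 TPM in every library. ERBB2 lay between 20.94 and 27.94 TPM over the 6 libraries, and EPCAM between 8.32 and 11.27 TPM. Sums of the 5 were 31.2 to 36.6 TPM in irradiated and 32.2 to 34.4 TPM in control libraries. Sums of 3 immune markers were 94.9 to 132 TPM in irradiated and 59.5 to 67.2 TPM in control libraries, and CD68, a lysosomal gene, gave most of each sum. PTPRC reached 40.36 TPM in irradiated replicate 1 and at most 0.45 TPM in any other library, and CD3E at most 0.05 TPM. Without irradiated replicate 1 all 6 ring subunits were still called lower. Sums of 2 endothelial, 3 fibroblast and 3 muscle markers were at most 1.59, 17.3 and 5.76 TPM in irradiated and 1.03, 12.6 and 2.90 TPM in control libraries.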

How the data were processed

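Total RNA was made into TruSeq RNA libraries, per the labels' protocols. HISAT2, StringTie, RSEM and hg38 are named, with no version or role, per the submitters' processing notes. All values came as TPM in a single table that the authors deposited, each a length-scaled share of its library. Read depth is unknown, so the spread between libraries is the measure of precision. Groups came from the sample titles. At most 0.479% of tested rows were identical between any 2 libraries of a group, so all 6 counted as samples.

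The 14621 genes that reached 1 TPM in 3 or more of the 6 libraries were tested two-sided on log2(TPM + 1) by limma 3.58.1 (R 4.3.3; lmFit, eBayes with trend, 4 residual and 3.39 prior degrees of freedom). P-values were adjusted by Benjamini-Hochberg across these genes, with calls under 0.05. Ratios and shares were compared by exact permutation over the 20 assignments with SciPy 1.17.1. The fit was tested on simulated data.

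The members, lists, tests and alternatives were chosen with earlier results of these data known. Named genes were the 9 members and up to 4 called genes of each list with the largest changes (or the 2 most abundant where none was called). Coding genes overlapping a member or starting within 1000 bases of its start, and the 5 nearest profiles, were also named. CDC45, GINS1, GINS3, GINS4, SUPT16H, UBE2C and MCMDC2 were added after their values were seen. Some genes named by this rule are not reported here. Coordinates are GENCODE 29 on GRCh38, 1-based, matched for 97.5% of tested rows; promoter sequences are from RefSeq. Alternatives were median-ratio scaling or quantile normalization, a low-value filter at 5 TPM or none, a pseudocount of 0.1, protein-coding genes only, removal of mitochondrially encoded genes, removal of cubic trends on GC content and length of the longest transcript, eBayes without trend or robust, rows summed by symbol, the replicate block and each library left out.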

Additional observations from a re-analysis of the deposited data

How the results depend on the processing

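MCM2, MCM3, MCM5, MCM6 and MCM7 kept their direction and their call in all 18 alternatives. Between 5 and 7 members were called lower in each, where 0.637% to 6.21% of all tested genes were. MCM4 was no longer called with no filter (-0.44, adjusted p = 0.140), after quantile normalization (-0.40, 0.0512), without mitochondrially encoded genes (-0.43, 0.0507) and with eBayes without trend (-0.44, 0.0885); leaving out 1 library gave -0.52 to -0.33. MCM10 was called after median-ratio scaling (-0.32) and quantile normalization (-0.30), and its adjusted p ran from 0.0371 to 0.241 over the alternatives. MCM8 changed sign around 0, with 0.0061 without mitochondrially encoded genes, 0.0805 after GC and length correction and -0.0943 to 0.0931 with 1 library left out. MCM9 was not called in any of the 17 alternatives that tested it (adjusted p at least 0.0985); the filter of 5 TPM removed it. The share of MCM3 in the sum differed by -0.0902 to 0.1289 percentage points with 1 library left out. The number of called genes was 1550, but 497 with no filter and 993 with eBayes without trend. It was 306 to 1390 with 1 library left out. Genes called lower were 4.07% of those tested, but 0.637% with no filter and 1.87% with eBayes without trend. With 1 library left out they were 0.814% to 3.41%. The lists around the MCM family held 10, 13, 12, 8, 4, 10 and 12 tested genes. Of these genes 17 were called, where 10.6% of all tested genes were. The count for the lists was 11 with no filter, 11 with eBayes without trend and 7 to 20 with 1 library left out. Median-ratio scaling turned the balance of calls from 955 higher and 595 lower to 778 higher and 852 lower. A fit on 5 libraries has 1 residual degree of freedom less, and the cause of the lost calls was not tested. Same-numbered libraries did not deviate together (correlations 0.03, -0.06 and -0.03), so they were not treated as pairs; with the replicate block 362 genes were called in all and 6 of the genes on the lists, MCM4 lost its call (-0.44, adjusted p = 0.0987), and no other member's call changed.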
